A study of Mus musculus with 4 samples.

Results

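Proteoglycan core proteins and the enzymes that build, sulfate and cut glycosaminoglycan chains were compared between Ovol2 knockout (KO) and control terminal end buds, the growing tips of the pubertal mammary ducts. The set of genes was chosen with earlier results of these data known, and its members were found by gene symbol. They were the syndecans, glypicans, heparan sulfate polymerases, heparan and chondroitin sulfotransferases, sulfatases, heparanases, hyaluronan synthases and hyaluronidases whose probe set carried exactly 1 gene name. This gave 55 genes of 19938 on the array, each read by 1 probe set. Hyal1 shares its 2 probe sets with another gene symbol and was left out by that rule. The 2 KO arrays held RNA of Ovol2flox/-;K14-Cre females, pooled from 3 mice per array. The 2 control arrays held RNA of Ovol2flox/+ females, pooled from 2 mice per array, although the treatment protocol also allows Ovol2flox/+;K14-Cre animals among the controls. All animals carried a floxed Ovol2 allele on strain C57/BL6, and their age is given as 4.5 weeks in the sample labels and as 24 to 25 days in the series text. K14-Cre acts in basal epithelium and skin, and the arrays do not show which other cells of the end buds had recombined. The null allele of KO mice is not limited to any cell type.

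Proteoglycans consist of a core protein with long sugar chains of the glycosaminoglycan type. Heparan sulfate on syndecans and glypicans binds growth factors such as FGFs, Wnts and Hedgehog proteins, and the pattern of sulfate groups sets which ligands bind. Chondroitin sulfate and hyaluronan fill the matrix between cells. In the mammary gland, heparan sulfate takes part in FGF-driven branching of the ducts, and Sdc1 is the main syndecan of epithelia.

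Values are log2(signal + 16) after quantile normalization, and differences are KO minus control. A gene was called changed where limma gave an adjusted p under 0.05 over all 11963 tested genes, and a ± gives the SE that this fit assigns to a difference, with n = 2 arrays per group. The arrays had median linear signals from 252.5 to 271.9. The targeted gene Ovol2 read 7.84 and 7.73 in the KO arrays and 8.05 and 8.31 in the controls, a difference of -0.39 ± 0.16 that did not pass (limma, adjusted p = 0.17). Krt14, whose promoter drives Cre, read 11.36 and 11.95 in the KO arrays and 11.14 and 11.31 in the controls (0.43 ± 0.15, limma adjusted p = 0.0993). The Krt14 value was 0.14 without KO replicate 2 and 0.72 without KO replicate 1. Krt14 passed in the deposited values and with median centring. Those fits took the variance from its trend with signal and not from the gene's own spread. All 8 luminal and all 8 basal or myoepithelial markers checked lay above the filter level. Markers of several cell types differed between the groups. The summed linear signal of 10 fibroblast markers was 18659 and 23262 in the KO arrays, against 9973 and 10100 in the controls, and 8 of the 9 tested rose. The sum of 8 endothelial markers was 4926 and 6362 in the KO arrays and 2994 and 3760 in the controls, whereas that of 8 luminal markers was 54222 and 53098 in the KO arrays and 53652 and 55107 in the controls. Of 8 basal and myoepithelial markers, the contractile and myoepithelial genes Acta2, Myh11, Cnn1 and Oxtr rose and Trp63 fell, and their sum was 25776 and 32022 in the KO arrays and 21711 and 23638 in the controls. The sum of 8 adipocyte markers was 5054 and 5911 in the KO arrays and 3631 and 3842 in the controls. Of the 5 tested, Fabp4, Lpl, Pparg and Cd36 rose, and Plin1 did not pass (-0.084). The other 3, too dim to test, had differences of 0.11 (Adipoq), 0.016 (Lep) and -0.015 (Cidec). The higher sum thus rests on the 4 that rose and not on the whole list. No marker of these lists was at 0. In bulk RNA, fewer cells of a type and less RNA per cell cannot be told apart.

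Of the 55 members, 40 passed the filter on low signal, and 4 of these rose, 5 fell and 31 did not pass the threshold in the KO arrays. The 9 called members are 22.5% of those tested, beside 10.7% of all tested genes, with 6.29% of all tested genes called higher and 4.45% called lower. The members that rose were Hpse2, Gpc6, Sdc2 and Sdc3, and those that fell were Hs3st3b1, Sdc1, Chst11, Chsy1 and Gpc3. Over all 55 members the median difference was -0.069, with 24 values above 0 and 31 below, beside a median of -0.049 over all 19938 genes. Both KO arrays lay above both control arrays for 16 members (20.1% of all genes) and below them for 25 (29.5% of all genes), so that the groups did not overlap for 74.5% of members, beside 49.6% of all genes. The split of called members was 3 higher and 6 lower with median centring of the arrays. The count of 9 became 5 without control replicate 1 and 16 without KO replicate 1. The other 15 members lay under the filter level of 7.97, about 235 in linear signal, and were not tested. Of the 40 tested, only Hs3st3a1 had a group mean under that level, in the KO arrays.

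**Figure D1:**
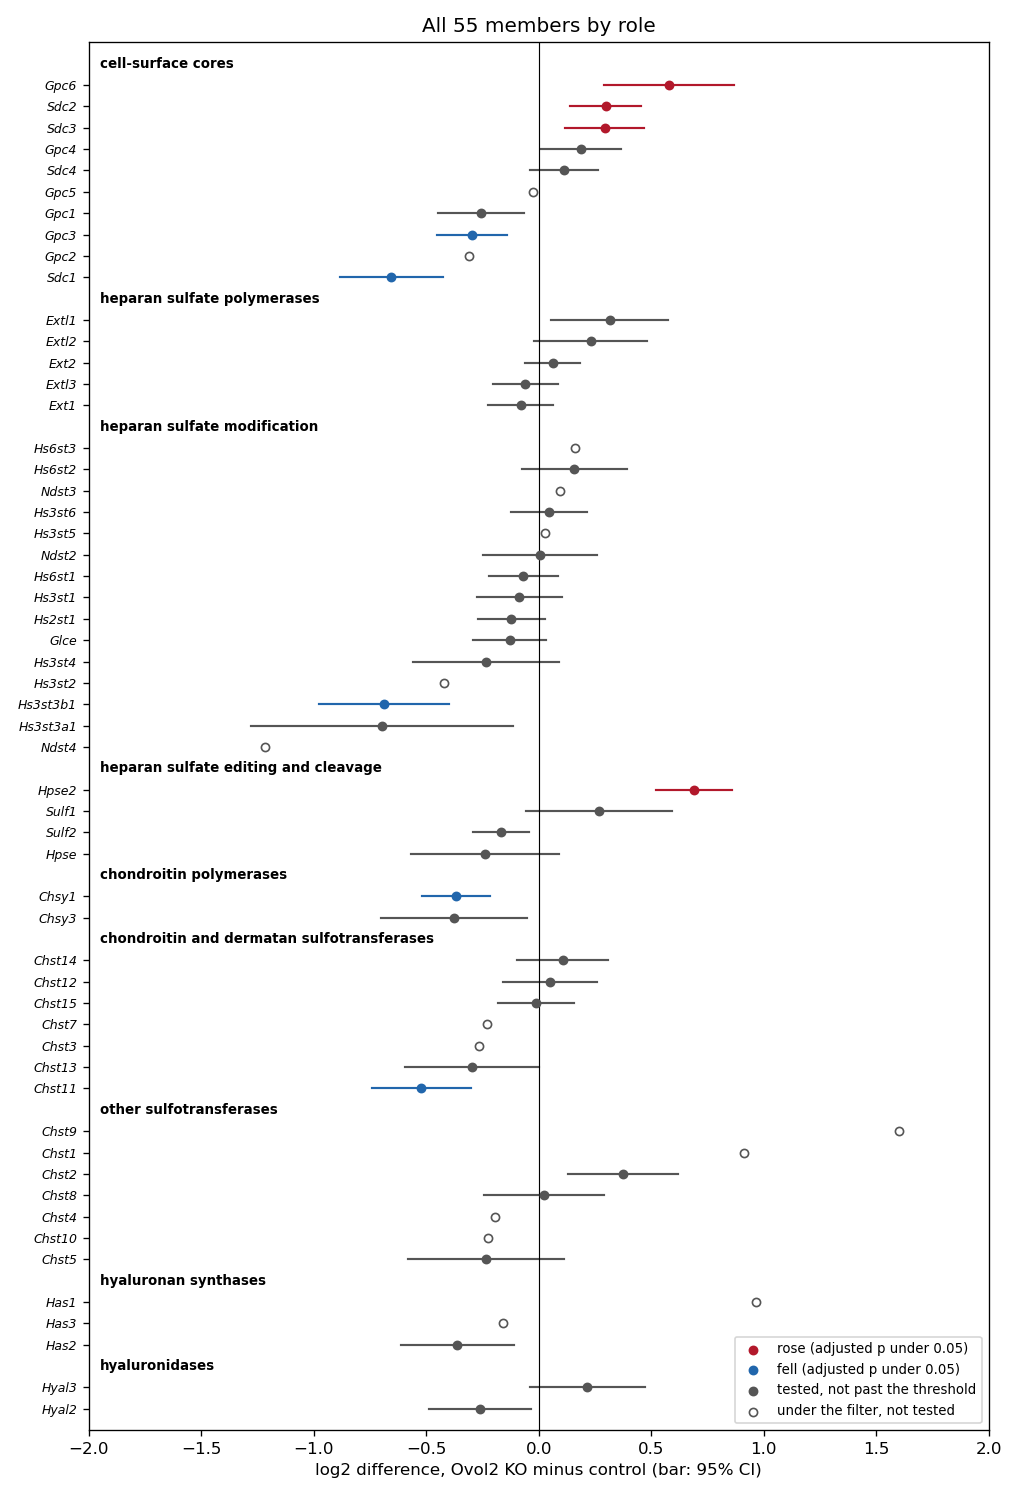
The log2 difference of KO minus control (horizontal axis) is drawn for each of the 55 members, grouped by role, with bars for the 95% CI of the 40 tested genes and open circles for the 15 under the filter. Red points are the 4 members that rose and blue points the 5 that fell, and the called points lie between -0.69 for Hs3st3b1 and 0.69 for Hpse2.

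Among the syndecans, the transmembrane heparan sulfate carriers, Sdc1 fell while Sdc2 and Sdc3 rose. Sdc1 (probe set 10394471) read 11.04 and 10.66 in the KO arrays, against 11.51 and 11.50 in the controls. Both KO arrays lay below both controls, and the second KO pool was the lower of the pair. The difference was -0.65 ± 0.10 (95% CI -0.89 to -0.42, limma adjusted p = 0.00479), which makes Sdc1 1.57-fold lower in KO end buds. Sdc2, the syndecan of mesenchymal cells, read 10.51 and 10.68 in the KO arrays and 10.28 and 10.31 in the controls (0.30 ± 0.071, limma adjusted p = 0.0271). Sdc3, best known from the nervous system, read 9.67 and 9.71 in the KO arrays and 9.42 and 9.37 in the controls (0.29 ± 0.078, limma adjusted p = 0.0425). For both genes the groups did not overlap and the rise was small, at 1.23-fold each. Sdc4, a widely expressed syndecan of focal adhesions, read 12.32 and 12.40 in the KO arrays and 12.15 and 12.35 in the controls. Its groups overlapped, and the difference was 0.11 ± 0.068 (95% CI -0.038 to 0.27, limma adjusted p = 0.338). Sdc1 did not pass with a robust variance prior. Neither Sdc2 nor Sdc3 passed with median centring or without any 1 of KO replicate 2, control replicate 1 or control replicate 2, and Sdc3 did not pass with no filter. Fibroblast markers were higher in the same KO arrays (summed signals above), and their part in these differences was not tested.

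Glypicans, which carry heparan sulfate on a lipid anchor, also went both ways. Gpc6 read 10.68 and 11.15 in the KO arrays, against 10.25 and 10.43 in the controls. The groups did not overlap, but the KO pools lay further apart (0.47) than the controls (0.18). Gpc6 rose 1.49-fold (0.58 ± 0.13, 95% CI 0.29 to 0.87, limma adjusted p = 0.0212). Gpc3, a regulator of Hedgehog and growth signals whose loss causes overgrowth in humans and mice, read 9.78 and 9.82 in the KO arrays and 10.09 and 10.10 in the controls. It was 1.23-fold lower in KO end buds, with little spread within either group (-0.30 ± 0.069, limma adjusted p = 0.0247). Gpc4, the neighbour of Gpc3 on the X chromosome, read 10.25 and 10.42 in the KO arrays and 10.08 and 10.20 in the controls and did not pass (0.19 ± 0.079, limma adjusted p = 0.167). Gpc1 read 10.40 and 10.14 in the KO arrays and 10.52 and 10.53 in the controls, and it did not pass either (-0.26 ± 0.085, limma adjusted p = 0.0882). Gpc2 and Gpc5 lay under the filter, with untested differences of -0.31 and -0.025. The size of the Gpc6 rise rested on 1 pool, at 0.34 without KO replicate 2 and 0.82 without KO replicate 1, and the call was lost without control replicate 1 (0.49) and with a robust prior. The Gpc3 call was lost in the deposited values, with median centring, without control replicate 1 or without control replicate 2.

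**Figure D2:**
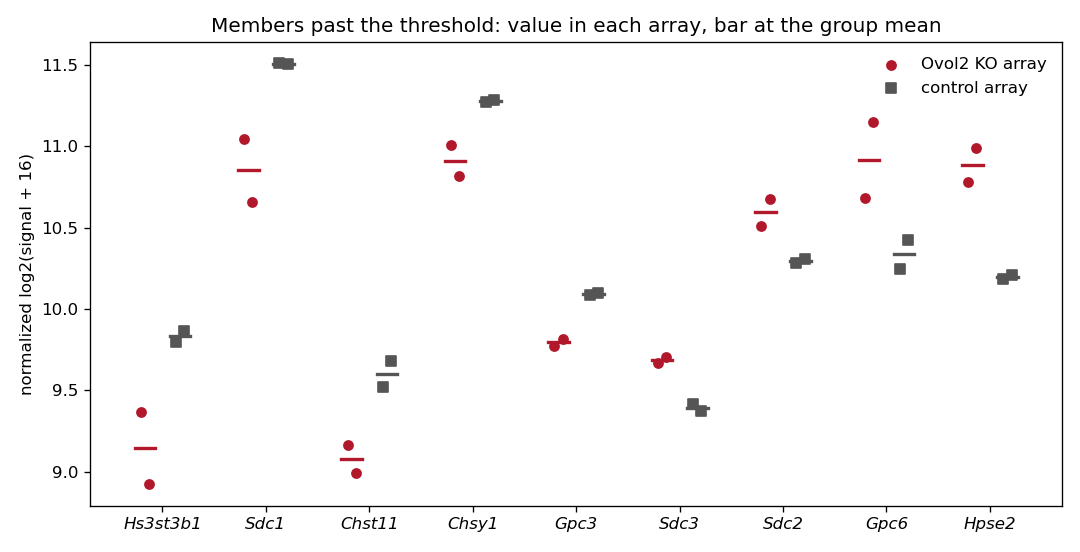
Normalized log2(signal + 16) (vertical axis) in each array for the 9 members past the threshold, with KO arrays as red circles on the left, control arrays as grey squares on the right and a bar at each group mean. The KO and control arrays do not overlap for any of the 9, and the KO pools of Gpc6 (10.68 and 11.15) and Hs3st3b1 (9.36 and 8.92) are the ones furthest apart.

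Of the 5 polymerase genes that extend heparan sulfate, 0 passed the threshold in limma, and 1, Extl1, had an unadjusted p under 0.05. Over all 11963 tested genes, 3051 had an unadjusted p under 0.05 in the same fit. Ext2, which forms the polymerase with Ext1, read 10.968 and 10.998 in the KO arrays and 10.922 and 10.921 in the controls (0.061 ± 0.054, 95% CI -0.061 to 0.18). Ext1 had a difference of -0.080 ± 0.065 (95% CI -0.23 to 0.065). The exostosin-like genes, which act on chain initiation and elongation, had differences of 0.31 ± 0.12 for Extl1, 0.23 ± 0.11 for Extl2 and -0.059 ± 0.064 for Extl3.

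Of 15 heparan sulfate modification genes, 10 were tested, 1 fell, 0 rose and 9 did not pass. The gene that fell was Hs3st3b1, a 3-O-sulfotransferase that adds a rare sulfate group near the end of chain modification. Hs3st3b1 (probe set 10386951) read 9.36 and 8.92 in the KO arrays, against 9.80 and 9.86 in the controls. Both KO pools were lower than both controls, the second by more, and the difference was -0.69 ± 0.13 (95% CI -0.98 to -0.40, limma adjusted p = 0.0101), or 1.61-fold lower. Its close paralog Hs3st3a1 lies on the same chromosome and encodes an enzyme with a nearly identical catalytic domain. Hs3st3a1 read 8.07 and 7.20 in the KO arrays and 8.18 and 8.49 in the controls. The difference was of like size but varied more between the KO pools (-0.70 ± 0.26, 95% CI -1.28 to -0.12, limma adjusted p = 0.122) and did not pass. The KO mean of 7.63 lay under the filter level, so Hs3st3a1 entered the test only through its control signal. The Hs3st3a1 value was -0.26 without KO replicate 2 and -1.13 without KO replicate 1. It passed with median centring (limma adjusted p = 0.0002) and in the deposited values (limma adjusted p = 0.000805). Both of these fits took the variance from its trend with signal, and so did not weigh the gap of 0.87 between its KO pools. Whether probes of the pair also bind each other's transcript was not tested. The other 3-O-sulfotransferase genes tested, Hs3st1, Hs3st4 and Hs3st6, had differences from -0.23 to 0.045 and did not pass.

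The tested enzymes of the earlier steps did not pass. The 6-O-sulfotransferase gene Hs6st1 read 10.44 and 10.42 in the KO arrays and 10.43 and 10.57 in the controls, with overlapping groups (-0.069 ± 0.068, 95% CI -0.22 to 0.084). The epimerase gene Glce and the 2-O-sulfotransferase gene Hs2st1 had small negative differences of -0.13 ± 0.073 and -0.12 ± 0.066, with no overlap of groups. Ndst2, the only tested gene of the enzymes that replace acetyl with sulfate on glucosamine, had a difference of 0.0047 ± 0.11. Ndst1 is not among the members, and Ndst3 lay under the filter with an untested value of 0.096. Their relative Ndst4 also lay under the filter and was not tested, at 6.74 and 5.82 in the KO arrays and 7.10 and 7.89 in the controls. The Ndst4 value of -1.22 thus compares dim signals, with no detection call to separate them from background, with gaps within each group of 0.92 in KO and 0.79 in control. With no filter it passed (adjusted p = 0.0417), and leaving out 1 array moved the value between -0.76 (without KO replicate 2) and -1.68 (without KO replicate 1).

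Hpse2 showed the largest rise among the tested members and the lowest adjusted p. It encodes heparanase 2, a relative of the heparan sulfate cutting enzyme heparanase that has no cutting activity of its own and inhibits heparanase. Hpse2 (probe set 10467826) read 10.78 and 10.99 in the KO arrays, against 10.18 and 10.21 in the controls. Both KO arrays were higher by more than the gap within either group, and the difference was 0.69 ± 0.076 (95% CI 0.52 to 0.86, limma adjusted p = 0.000933), or 1.61-fold. Heparanase itself, Hpse, read 8.0 and 7.948 in the KO arrays and 8.13 and 8.30 in the controls, close to the filter level (-0.24 ± 0.15, limma adjusted p = 0.357). Of the sulfatases that remove 6-O-sulfate outside the cell, Sulf2 read 10.90 and 10.92 in the KO arrays and 11.05 and 11.10 in the controls. The groups of Sulf2 did not overlap, but the difference did not pass (-0.17 ± 0.055, limma adjusted p = 0.0879). Sulf1 had a difference of 0.27 ± 0.14 and did not pass. Hpse2 was the only called member past the threshold in all 15 alternative settings, and the only one of the 9 that passed without the mean-variance trend (adjusted p = 0.0428).

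Of the 2 chain polymerase genes of chondroitin sulfate, 1 fell and the other did not pass. Chsy1 read 11.01 and 10.82 in the KO arrays, against 11.27 and 11.29 in the controls, with no overlap and a narrow control pair. It was 1.29-fold lower in KO end buds (-0.37 ± 0.068, 95% CI -0.52 to -0.21, limma adjusted p = 0.00976). Chsy3 read 9.85 and 9.34 in the KO arrays and 10.07 and 9.87 in the controls (-0.38 ± 0.14, limma adjusted p = 0.132). Its KO pools lay 0.51 apart, and it did not pass. The Chsy3 value was -0.12 without KO replicate 2 and -0.63 without KO replicate 1. It passed in the deposited values (limma adjusted p = 0.0174), in a fit that took the variance from its trend with signal and not from the gene's own spread.

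Among 7 sulfotransferase genes of chondroitin and dermatan sulfate, 5 were tested and 1 fell. Chst11, which adds the 4-O-sulfate of chondroitin, read 9.16 and 8.99 in the KO arrays, against 9.52 and 9.68 in the controls. It was 1.44-fold lower in KO end buds (-0.52 ± 0.098, 95% CI -0.74 to -0.30, limma adjusted p = 0.0105). Chst12 and Chst13, which add the same sulfate group, had differences of 0.051 ± 0.093 and -0.30 ± 0.13 and did not pass. Chst15, which adds a second sulfate to 4-sulfated units, read 9.84 and 9.86 in the KO arrays and 9.80 and 9.92 in the controls (-0.012 ± 0.076, 95% CI -0.18 to 0.16). The dermatan enzyme gene Chst14 had a difference of 0.11 ± 0.090, while Chst3 and Chst7 lay under the filter at -0.26 and -0.23. The Chst11 call was lost without control replicate 2 (-0.44, limma adjusted p = 0.0624).

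The pattern also took in 7 sulfotransferase genes that act on keratan sulfate, N-glycans and related sugars, of which 3 were tested and 0 passed. At an unadjusted p under 0.05, Chst2 was the only 1 of these 3 (0.38 ± 0.11, limma adjusted p = 0.0574), beside 3051 of all 11963 tested genes. Chst2 read 8.89 and 8.99 in the KO arrays and 8.52 and 8.60 in the controls. Chst8 read 8.93 and 9.14 in the KO arrays and 9.14 and 8.89 in the controls, with overlapping groups (0.023 ± 0.12). Chst9, an enzyme that sulfates terminal GalNAc, had the largest value of all members and was not tested. It read 6.67 and 6.84 in the KO arrays and 5.21 and 5.10 in the controls, all under the filter level. Its value of 1.60 moved to 2.18 with an offset of 1 and to 0.90 with an offset of 64, and with no filter it passed (adjusted p = 0.00033). Chst1, a keratan sulfate enzyme gene named after its value was seen, read 8.37 and 8.48 in the KO arrays and 7.34 and 7.68 in the controls. Its mean of 7.97 over the 4 arrays lay just under the filter, and its control mean of 7.51 lay well under it. Chst1 passed in the 5 other settings that let it in, with values from 0.76 to 0.93, but it entered those with a filter only through its KO signal. Chst4, an enzyme of the high endothelial venules of lymph nodes, read 6.53 and 6.52 in the KO arrays and 6.73 and 6.71 in the controls and was not tested. Of the other venule markers, Madcam1 (-0.0145) and Fut7 (-0.0564) lay under the filter with overlapping groups. Glycam1, the remaining gene of that list, read 9.57 and 5.45 in the same KO arrays and 11.757 and 12.004 in the controls. Its KO pools lay 4.12 apart, and their mean of 7.51 was under the filter level, so that it entered the test only through the controls. Which cells gave the Glycam1 signal was not tested. The summed signal of 7 lymphocyte markers was lower, at 910 and 887 in the KO arrays and 2307 and 1827 in the controls. Of the 3 tested, Cd79b (-1.905) and Ccr7 (-0.84) fell and Cd3e (-0.25) did not pass. The KO mean of Cd79b, 7.43, lay under the filter level. The other 4, too dim to test, had differences of -2.05 (Ms4a1), -1.78 (Cd79a), -1.01 (Cxcr5) and -0.095 (Cd3g). The lower sum thus does not rest on the whole list. The part of lymph node tissue in the Chst4 value was not tested.

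Of the 3 tested hyaluronan synthase and hyaluronidase genes 0 passed in limma. Has2 and Hyal2 had an unadjusted p under 0.05, as did 3051 of all 11963 tested genes. Has2, the main synthase of developing tissues, read 10.72 and 10.31 in the KO arrays, against 10.83 and 10.93 in the controls. Both KO arrays lay lower, the second by more, and the difference was -0.36 ± 0.11 (95% CI -0.61 to -0.11, limma adjusted p = 0.071). Has2 passed in the deposited values (-0.35, limma adjusted p = 0.0017) and with median centring (-0.40, limma adjusted p = 0.03). Both fits took the variance from its trend with signal, and so did not weigh the gap of 0.41 between the KO pools. The size of the Has2 difference rested on 1 pool, at -0.16 without KO replicate 2 and -0.57 without KO replicate 1. Has1 lay under the filter and was not tested, at 8.09 and 8.38 in the KO arrays and 7.042 and 7.497 in the controls. The Has1 value of 0.97, singled out after it was seen, passed with no filter (adjusted p = 0.00972), but its control signals were dim and had no detection call. Has3 was dim in all arrays, with a difference of -0.16. The hyaluronidase genes Hyal2 and Hyal3, whose products cut hyaluronan or related chains, had differences of -0.26 ± 0.10 and 0.22 ± 0.11 and did not pass. Hyal2 read 9.12 and 8.92 in the KO arrays and 9.33 and 9.24 in the controls.

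RefSeq promoter windows of the GRCm38.p6 assembly were found for 43 of the 55 members and 7 of the 9 called members. The 250 bases before the start are shown for the 4 of these 7 with the largest differences, to set beside each other a promoter of the gene that rose most and those of 3 genes that fell. Capitals mark GC boxes (GGGCGG on either strand).
Hpse2 (chr19:43388356-43388605, minus strand): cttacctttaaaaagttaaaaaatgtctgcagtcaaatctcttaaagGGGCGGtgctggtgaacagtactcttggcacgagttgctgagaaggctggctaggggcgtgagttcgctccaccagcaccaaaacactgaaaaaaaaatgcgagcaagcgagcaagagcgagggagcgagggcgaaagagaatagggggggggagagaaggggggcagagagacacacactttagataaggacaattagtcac
Hs3st3b1 (chr11:63922285-63922534, minus strand): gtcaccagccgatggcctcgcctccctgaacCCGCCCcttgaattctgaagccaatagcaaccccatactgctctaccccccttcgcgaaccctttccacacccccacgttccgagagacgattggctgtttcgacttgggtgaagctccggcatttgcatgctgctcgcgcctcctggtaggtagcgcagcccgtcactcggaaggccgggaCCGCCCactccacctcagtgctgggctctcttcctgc
Sdc1 (chr12:8771146-8771395, plus strand): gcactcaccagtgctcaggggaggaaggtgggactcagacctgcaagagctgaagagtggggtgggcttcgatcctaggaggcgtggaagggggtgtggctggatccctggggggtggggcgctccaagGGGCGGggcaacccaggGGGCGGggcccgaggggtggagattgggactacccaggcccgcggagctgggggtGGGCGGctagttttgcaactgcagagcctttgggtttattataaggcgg
Chst11 (chr10:82985247-82985496, plus strand): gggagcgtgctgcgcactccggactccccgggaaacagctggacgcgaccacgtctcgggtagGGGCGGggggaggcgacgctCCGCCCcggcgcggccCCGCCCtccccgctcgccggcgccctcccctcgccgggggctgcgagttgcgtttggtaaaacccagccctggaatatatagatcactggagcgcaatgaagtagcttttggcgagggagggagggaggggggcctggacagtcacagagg
Windows were searched on both strands for the E-box CACCTG bound by Zeb1, a repressor of epithelial genes, for CCGTTA, a core bound by Ovo proteins, for GGGCGG and for TATAAA. None of these motifs contains another. The GC box occurred in 7 of the 7 windows of called members, in 70.8% of 48 member windows and in 32.7% of 32851 windows of all genes. The windows of all genes include genes under the filter on low signal, and no share was taken for tested genes alone. Neither CACCTG nor CCGTTA occurred in the 7 windows of called members, beside 17.2% and 2.18% of all windows. CACCTG was found for 3 members (Chst5, Hs3st5 and Sulf2) and CCGTTA for 1 (Chst2), and TATAAA occurred in 0 of the 7 windows and in 12.4% of all. The GC content of the printed window was 50.0% for Hpse2, the only printed gene that rose, and 62.4% for Hs3st3b1, 66.0% for Sdc1 and 70.0% for Chst11. It was not taken for Sdc3, which also rose, or for the windows of other genes. These values therefore do not compare genes that rose with genes that fell. A match or its absence in this window says nothing of whether a factor binds the gene.

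Other genes of glycosaminoglycan metabolism were set beside the members. Of 61 such genes on the array, 45 were tested, 2 rose, 4 fell and 39 did not pass, with a median of -0.017 over all 61. The called genes are 13.3% of those tested, beside 10.7% of all tested genes. By direction, 4.44% were called higher and 8.89% lower, beside 6.29% and 4.45% of all tested genes. The split was 6 higher and 4 lower in the deposited values and 1 and 1 with median centring, and the count was 1 without control replicate 1 and 10 without KO replicate 1. Of 17 tested genes for precursor supply and the linker that joins chain to core, 0 passed in limma and 3 had an unadjusted p under 0.05. The 3 were Fam20b, Ugp2 and Slc35b3, named after their values were seen (-0.23, -0.19 and 0.33). Of 5 tested chondroitin chain enzymes 0 passed, with 0 at an unadjusted p under 0.05. Of 11 tested lysosomal enzymes that break chains down 0 passed, with 3 at an unadjusted p under 0.05. Over all 11963 tested genes, 3051 had an unadjusted p under 0.05.

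The 6 genes that passed were other cores and hyaluronan binding proteins. Vcan, encoding the large chondroitin sulfate proteoglycan versican, read 11.75 and 11.68 in the KO arrays, against 12.04 and 12.01 in the controls, and fell (-0.31 ± 0.050, limma adjusted p = 0.00536). Col18a1, a heparan sulfate bearing collagen of basement membranes, fell by 0.34 ± 0.071 on the log2 scale. Tgfbr3, the proteoglycan betaglycan that presents TGF-beta, rose by 0.33 ± 0.082 (0.22 without KO replicate 2). The hyaluronan receptor gene Hmmr, which is also a mitotic spindle gene, fell by 0.35 ± 0.071 and the receptor gene Cd44 fell by 0.24 ± 0.051. Tnfaip6, whose product modifies hyaluronan, read 8.53 and 9.09 in the KO arrays and 7.610 and 7.998 in the controls (1.01 ± 0.20, limma adjusted p = 0.0133). Its control mean of 7.80 lay under the filter level, so Tnfaip6 was tested only through its KO signal, and its call stands with that limit. The Col18a1, Tgfbr3, Hmmr and Cd44 calls were lost with median centring and without control replicate 1, and the Tnfaip6 call without control replicate 1. The basement membrane heparan sulfate proteoglycan genes Hspg2 (0.25) and Agrn (-0.075) did not pass.

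**Figure D3:**
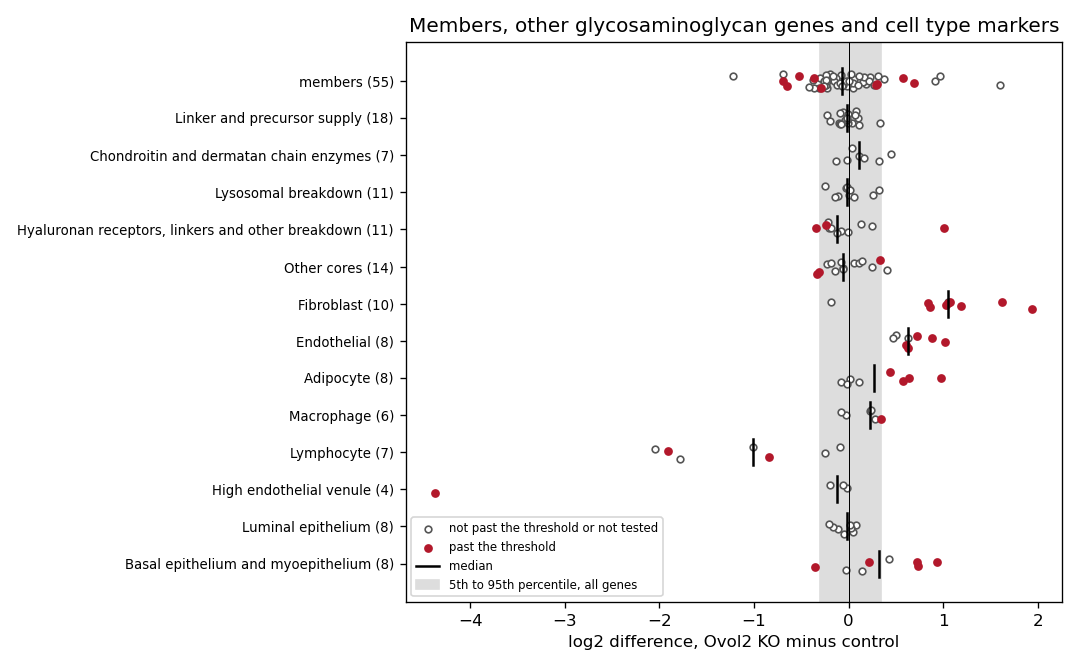
Each point is a gene, placed by its log2 difference of KO minus control (horizontal axis), for the 55 members, the 5 lists of other glycosaminoglycan genes and 8 lists of cell type markers, with gene numbers in parentheses. Black bars are list medians, such as -0.069 for members and 1.05 for fibroblast markers, and the grey band spans the 5th to 95th percentile of all genes (-0.30 to 0.34).

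Calls of the 9 members were followed through 15 other settings. The direction of all 9 was kept in each of these settings, but most of them could not have changed it. Other filters, variance priors, probe set rules and blocks left the differences as they were. As the groups did not overlap, leaving out 1 array could not change a sign. Only the other normalizations and offsets could have done so. Without the mean-variance trend 1 of the 9, Hpse2, stayed past the threshold, while 188 of all 11963 genes were called. Without control replicate 1 the 5 that stayed were Hs3st3b1, Sdc1, Chst11, Chsy1 and Hpse2, and without control replicate 2 they were Hs3st3b1, Sdc1, Chsy1, Gpc6 and Hpse2. Hs3st3b1 and Chsy1 passed in 14 of the 15 settings and Sdc1 and Chst11 in 13. Of members not called, Gpc1 (-0.39), Gpc4 (0.27), Hyal2 (-0.36) and Chst2 (0.43) had larger absolute differences without KO replicate 1 than in the reported fit. Chst13 (-0.46) and Extl1 (0.42) had larger ones without KO replicate 2.

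**Figure D4:**
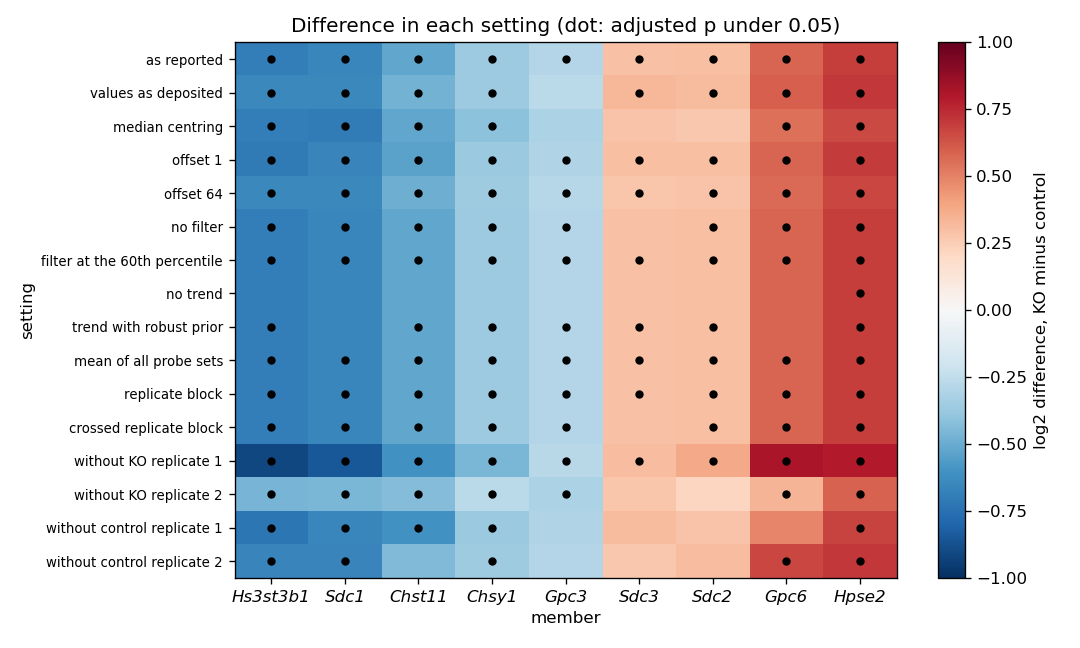
Colour gives the log2 difference of KO minus control of each of the 9 called members (columns) in the reported fit and in 15 other settings (rows), with a dot where the adjusted p was under 0.05. The sign of each column is the same in all settings, most of which could not change it. Hpse2, between 0.59 and 0.80, has a dot in each.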

How the data were processed

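RNA of mouse terminal end buds was hybridised to 4 single-dye Affymetrix arrays. The authors deposited linear signal intensity values for 35556 probe sets, made with Expression Console 1.1.1 and PLIER 2.0 per the submitters' processing notes. Their settings, background correction and normalization: not given in the sources used here. There are no detection calls, so dim signals cannot be told from background and folds against them may understate a change, and 2 arrays per group limit the precision.

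Probe sets were named through the supplied platform annotation, and 21789 carried 1 symbol. Each gene was read by its brightest probe set over the 4 arrays (19938 genes). Values were taken as log2(signal + 16) and quantile normalized over all probe sets, since array medians differed by 0.1006 (log2). Genes with a mean under the 40th percentile were left out. Groups came from the sample titles and were compared with limma 3.58.1 in R 4.3.3 (lmFit, eBayes with trend, two-sided, Benjamini-Hochberg over 11963 genes), checked on simulated data. Replicates are separate pools by their labels. Members and lists were chosen with earlier results of these data known. Values in every array are given for members past the threshold, for the one with the highest mean in each role, and for those under the filter with a difference of at least 1 (log2). At most 4 called genes per list of other glycosaminoglycan genes are named. Settings tried were other normalizations, offsets, filters, variance priors and probe set rules, a replicate block, and each array left out in turn. Same-numbered pools were not treated as pairs (correlation of their deviations from group means -0.196). Sequences are from RefSeq.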

Additional observations from a re-analysis of the deposited data

How the results depend on the processing

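The count of called members was 9 as reported. It was 14 in the values as deposited (10 for other glycosaminoglycan genes), 1 without the mean-variance trend (0 and, over all genes, 188) and 15 with the replicate number as a block (2246 over all genes). With median centring the count was 9 for members, 2 for other glycosaminoglycan genes and 753 over all genes. Those 9 held only 6 of the 9 reported members. Gpc3, Sdc2 and Sdc3 were lost and Chst1, Has2 and Hs3st3a1 were gained. Leaving out 1 array gave 5 to 16 members, 1 to 10 other glycosaminoglycan genes and 476 to 2347 of all genes, with the lowest counts without control replicate 1 and the highest without KO replicate 1. The 0 without the trend is by limma, which called 6 other glycosaminoglycan genes with it. The fits with median centring, as deposited, with the block and without a KO array took the variance as known from the trend, and where 1 array was left the lone array was assumed to vary like the other group. The block left 1 residual degree of freedom, and with the numbers crossed (added after seeing the data) 11 members and 1203 genes were called. Causes of these shifts were not tested. Signal over background was not known for any probe set, and 15 of 55 members were too dim to test.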
